A study of Mus musculus with 38 samples.

Results

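Livers whose hepatocytes lack Met were set against control livers, both taken 5 months after a dose of a liver carcinogen. The comparison holds 10 of the 20 mice of the series, 5 knockouts and 5 controls, picked by the genotype and time in their labels. They gave 18 of the 38 arrays, 8 from knockouts and 10 from controls. All 10 were males, and all, controls included, carried one copy of Alb-Cre, a Cre recombinase under the albumin promoter, which acts in hepatocytes. Knockouts were labelled Alb-Cre +/-; Met Fl/Fl on strain 129SV/C57BL6, and controls Alb-Cre +/- on strain B6129. Genotype and strain label cannot be told apart. All 10 had been injected intraperitoneally at the age of 14 days with N-nitrosodiethylamine (DEN), 10 micrograms for each gram the animal weighed. The labels give an age of 20 weeks, which is under 5 months after a dose at that age, so the interval is named here as the labels name it and is not settled. The other 10 mice of the series, 5 knockouts and 5 Cre controls labelled 3 months and 12 weeks old, enter the fit and serve for comparison. They had received the same dose of DEN at the same age. Whether the mice of a group were littermates is not stated in the sources used here.

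Met is the receptor tyrosine kinase of hepatocyte growth factor (HGF), which the non-parenchymal cells of the liver secrete. Bound receptor recruits adaptors such as Gab1 and Grb2 and signals through ERK, PI3 kinase and STAT3, and in the liver it is known for its part in regeneration after injury. DEN becomes an alkylating agent once cytochromes P450 of hepatocytes have oxidised it, and young male mice given it develop liver tumours. Because Cre follows the albumin promoter, endothelial, Kupffer, stellate and immune cells keep both Met alleles.

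Every array held a liver against the same reference, a pool of 5 livers from wild-type males of 12 weeks. A level is given here as log2 of liver over reference, averaged over the arrays of a mouse, so 0 is the level of the pooled livers and 1 is a doubling. A difference is the knockout mean minus the control mean, with its standard error (SE) from a limma fit over all 20 mice, and a probe is called where its p, adjusted over 36607 probes by Benjamini-Hochberg, is under 0.05. The median over 19 hepatocyte markers was -0.072, -0.051, 0.096, -0.53 and 0.015 in controls 1 to 5 and 0.24, 0.094, 0.012, 0.099 and 0.0075 in knockouts 1 to 5. Control 4 was well below the reference and the other 9 livers were near it, and the list's median difference of 0.17 was 0.059 without control 4. On a ratio to liver RNA this does not show how abundant a marker is.

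Libraries that stand apart bear on what follows. The liver-in-Cy5 array of control 4 correlated across probes at -0.29 to 0.27 with the other 8 liver-in-Cy5 arrays of 5 months, at 0.53 to 0.72 with the turned liver-in-Cy3 arrays, and at -0.61 to -0.48 with the liver-in-Cy5 arrays of 3 months. As deposited, it behaves like a liver-in-Cy3 array that has already been turned. With its sign turned it would run against the other array of its mouse, with which it correlates at 0.70 as labelled. Its orientation is not settled. Counts are given below also without it, with the dye effect of a Cy3 array and with its sign turned. Knockouts 3 to 5 come from a later run of array numbers (run B) than the controls and knockouts 1 and 2 (run A). What a run stands for is not stated. A test of run B against run A knockouts called 41 probes, none of them among those called between genotypes. Lists this short would seldom share a probe, so this does not show that the run leaves the calls untouched. At an unadjusted p under 0.05 for the runs by limma were 6 of the 41 probes called between genotypes and 1873 of all 36607. Knockout 2 has only a liver-in-Cy3 array and knockout 3 only a liver-in-Cy5 array. In every 3-month mouse the turned arrays of opposite dye correlated negatively across probes, before a dye effect was taken off (r from -0.51 to -0.34). At 5 months this r ran from -0.18 in knockout 4 to 0.70 in control 4. The cause was not tested, and 3-month values are to be read with this limit. Which dye is the numerator is likely Cy5 but is not stated, and the opposite reading exchanges higher and lower throughout.

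Few genes separated the genotypes, and nearly all of them were higher in the knockouts. Of 36607 probes, 41 were called (0.112%), 39 higher (0.107%) and 2 lower (0.00546%). They include 28 genes, 26 higher by 0.59 to 1.91 on the log2 scale and 2 lower, and another 8 probes without a gene symbol, all higher by 0.63 to 1.48. Those of the 8 with differences from 0.75 to 0.84 had similar levels in every mouse, so the called probes need not all be separate transcripts. In 26 of the 28 genes every knockout lay beyond every control, the exceptions being Abca3 and Olfm1. The 28 genes were chosen by the p of this same comparison, which favours such separation, so it adds no support to the calls. The same non-overlap held for 972 probes upward (2.66%) and 465 downward (1.27%) of all tested. All 41 called probes had the same direction in liver-in-Cy5 arrays alone and in liver-in-Cy3 arrays alone. The calls were made on means over these same arrays, which favours a shared direction. Alone, the liver-in-Cy5 arrays gave 0 calls by limma and the liver-in-Cy3 arrays 2, with 0 of the 41 among them. Over all probes the median difference was 0.014 and 52.3% were above 0. In bulk liver, fewer cells of a type and less RNA per cell cannot be told apart.

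The number of calls depends on the setting more than the sizes do. Leaving out the liver-in-Cy5 array of control 4 gave 47 calls, giving it the dye effect of a Cy3 array gave 65, and turning its sign gave 9. Leaving out the run B knockouts gave 0 by limma, with 2190 probes at an unadjusted p under 0.05. With array run as a covariate 3 probes were called, 2 of them among the 41, and all 41 kept their direction with an unadjusted p under 0.05. Quantile normalization gave 687 calls, of which 59.7% were higher, against 95.1% of the 41. Leaving out single mice gave between 10 calls (without knockout 4) and 100 (without control 3). Vnn1, Abca3, Gbp4, H2-Bl, Dynlt1b, Glo1, P2rx4 and St7 kept their call without each of the 10 mice in turn, and each of the other 20 called genes lost it without 3 to 9 of the mice, taken singly.

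**Figure D1:**
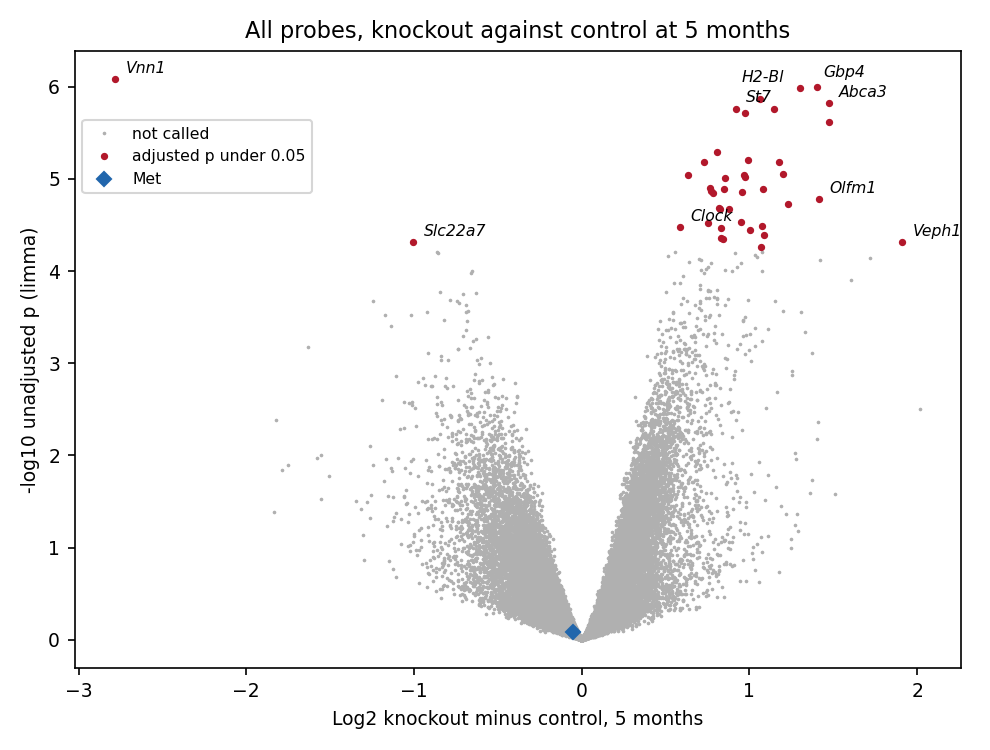
Each point is 1 of 36607 probes, with the log2 difference of knockout minus control livers at 5 months on the x axis and -log10 of the unadjusted limma p on the y axis. The 41 called probes (red) lie mostly to the right, from 0.59 to 1.91, Vnn1 lies alone at -2.78, and Met (blue diamond) lies near 0.

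Met itself gave no difference at this probe. Its levels were -1.19, -0.61, -0.81, -0.67 and -0.37 in controls 1 to 5 and -0.45, -0.67, -1.65, -0.53 and -0.62 in knockouts 1 to 5. Only knockout 3 lay below the controls, and the groups overlap. The difference was -0.052 ± 0.22 (SE), adjusted p = 0.977, and it changed sign with the setting, for instance to 0.17 within run A. Where the probe lies relative to the floxed exon is not given in the sources used here, and non-hepatocyte cells keep the gene, so this probe neither checks nor contradicts the labels. Met also stood below the reference in both groups, at -0.73 ± 0.30 (SD, n = 5) in controls and -0.78 ± 0.49 (SD, n = 5) in knockouts.

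The rest of the HGF and Met system showed equally little. None of its 26 measured genes, which include the ligand, its activating protease and inhibitors, and the adaptors downstream, was called, and their median difference was 0.0001. The member with the smallest p was Rap1a, a small GTPase of the Ras family, at 0.40 ± 0.15 (SE), adjusted p = 0.344. Of the EGF receptor family and ligands, which drive the other main growth signal of hepatocytes, none of 12 was called. The ligand Tgfa stood at 0.30, 0.76, 0.29, 0.45 and 0.44 in the controls and at 0.26, -0.21, 0.027, -0.086 and -0.068 in the knockouts, below every control but not past the threshold (-0.47 ± 0.18 (SE), adjusted p = 0.38).

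Both genes that follow Met on chromosome 6 were called. In RefSeq's gene order (GRCm38.p6), Capza2, a subunit of the actin-capping protein, comes directly after Met, and St7, named as a candidate tumour suppressor, comes next. St7 stood at 0.48, 0.35, 0.17, -0.088 and 0.086 in controls 1 to 5 and at 1.501, 1.17, 0.95, 1.03 and 0.94 in knockouts 1 to 5. The groups are well apart, with a difference of 0.92 ± 0.14 (SE), adjusted p = 0.00886, and 2 further probes gave 0.81 and 0.15. Capza2 stood at 0.14, 0.22, 0.046, -0.10 and -0.11 in controls and at 0.92, 0.92, 0.61, 0.90 and 0.68 in knockouts. It was higher by 0.77 ± 0.13 (SE), adjusted p = 0.0219, and its other probe gave 0.70, just short of the threshold. Within run A the difference was larger for both, 1.14 for St7 and 0.88 for Capza2, and this probe of St7 was also called with run as a covariate.

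The other genes around Met were not called. On the far side of St7, Wnt2 gave 0.10. On the other side of Met, its direct neighbour Cav1 gave -0.70 with an adjusted p of 0.41 and the probes of Cav2 gave -0.032 and -0.017. Of the 16 protein-coding genes nearest to Met in that order, 8 on each side, 15 had a probe, and Capza2 and St7 were the ones called. These neighbours were looked up after the 2 calls had been seen. At 3 months the differences were 0.58 for St7 and 0.26 for Capza2, in the same direction.

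Chromosome 17 held the most called genes, 6 of 803 measured (0.747%), followed by chromosome 5 with 5 of 1016 (0.492%) and chromosome 6 with 5 of 1098 (0.455%). The 6 are Abca3, H2-Bl, Dynlt1b, Glo1, Elob and Slc22a7. This distribution was looked at after the calls and was not tested.

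**Figure D2:**
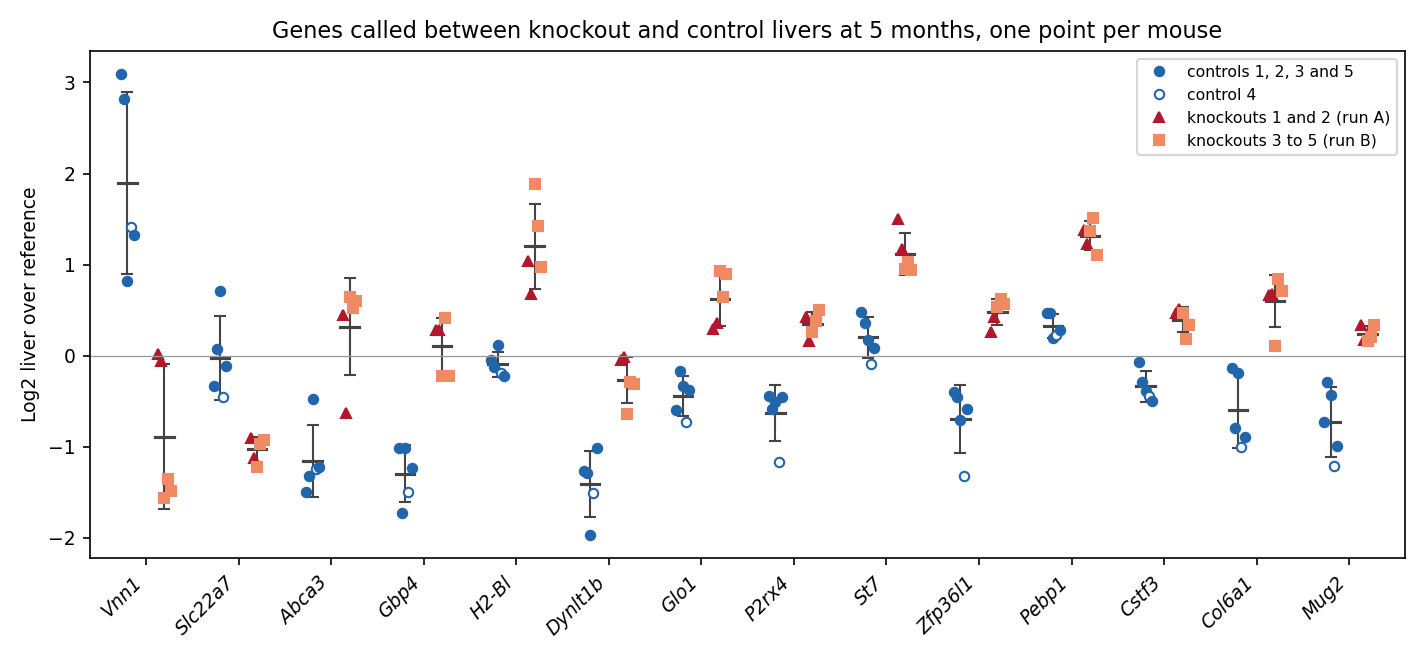
Points are log2 liver over reference for each mouse (y axis) for the 2 lower and the 12 higher genes with the smallest p (x axis), and bars are means ± SD, n = 5. Knockouts of run B (squares) lie below those of run A (triangles) for Vnn1, while for Pebp1, Mug2 and Slc22a7 the runs lie together.

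Of the 2 lower genes, Vnn1 had the largest difference of all probes. Vanin 1 is a pantetheinase that releases cysteamine and pantothenate during coenzyme A turnover, and it is a known target of the nuclear receptor PPAR-alpha. Its levels were 3.10, 2.82, 0.82, 1.42 and 1.32 in controls 1 to 5 and 0.021, -0.056, -1.57, -1.35 and -1.49 in knockouts 1 to 5. All knockouts lay below all controls, and the controls themselves spread over more than 2 log2 units. The difference was -2.78 ± 0.39 (SE), adjusted p = 0.00886, which is 6.88-fold lower. Knockouts of run A averaged -0.018 and those of run B -1.47, and with run as a covariate the difference was -1.91, with an adjusted p of 0.225.

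No wider group moved with it at the threshold. Of 45 fatty acid oxidation genes and PPAR-alpha targets, Vnn1 was the only one called, 7 had an unadjusted p under 0.05 downward, against 3.26% of all probes, and the median was -0.094. The list's median was -0.0021 for run A knockouts minus controls and -0.22 for run B. Without control 4 it was -0.22, with 10 members at that p downward, against 2.34% of all probes. Cd36, the fatty acid translocase, gave -0.66 ± 0.23 (SE), adjusted p = 0.331. Bdh1, the mitochondrial enzyme that makes the ketone body hydroxybutyrate, gave -0.55 ± 0.19 (SE), adjusted p = 0.317.

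Slc22a7, an organic anion transporter (OAT2) of liver, was the other lower gene. It stood at -0.33, 0.075, 0.71, -0.46 and -0.12 in the controls and at -0.91, -1.12, -1.22, -0.97 and -0.92 in the knockouts. All knockouts lay close together below every control, in both runs alike (-1.01 in run A and -1.04 in run B). The difference was -1.0038 ± 0.19 (SE), adjusted p = 0.0447. The call is close to the threshold. It was lost without any 1 of 9 of the 10 mice, with arrays centred on their medians (adjusted p = 0.0681), with no dye effect subtracted (adjusted p = 0.0514) and with run as a covariate (adjusted p = 0.323), and was kept with the control 4 array turned (adjusted p = 0.0368). At 3 months the difference was -0.87.

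Regulators that act on ERK signalling and on short-lived mRNAs were among the higher genes. Pebp1 encodes the RAF kinase inhibitor protein, which binds RAF and holds back ERK activation. It stood at 0.47, 0.47, 0.19, 0.23 and 0.29 in the controls and at 1.38, 1.23, 1.37, 1.52 and 1.1025 in the knockouts. The groups are far apart against SDs of 0.13 and 0.16 around the means, and the difference was 0.99 ± 0.16 (SE), adjusted p = 0.0186. Dusp1, a phosphatase that inactivates ERK, p38 and JNK, stood at -1.13, -0.71, -1.17, -0.71 and -0.53 in the controls and at 0.54, 1.06, 1.23, -0.098 and 0.12 in the knockouts. No mice overlapped, yet its difference of 1.42 ± 0.28 (SE), adjusted p = 0.0525 missed the threshold narrowly. Of 14 ERK feedback genes, Pebp1 was the only call, and the median was 0.088.

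Zfp36l1 encodes a zinc finger protein that binds AU-rich elements in mRNAs and speeds their decay. Its most significant probe stood at -0.40, -0.45, -0.70, -1.32 and -0.58 in the controls and at 0.26, 0.43, 0.54, 0.62 and 0.57 in the knockouts, without overlap, and control 4 was lowest. The difference was 1.18 ± 0.19 (SE), adjusted p = 0.0186, 2 further probes gave 1.07 and 1.08, and a last one gave -0.045. Cpeb2, which binds the cytoplasmic polyadenylation element of mRNAs, was higher by 1.01 ± 0.19 (SE), adjusted p = 0.0372. Id3, a helix-loop-helix inhibitor of differentiation and a target of BMP signals, was higher by 1.23 ± 0.22 (SE), adjusted p = 0.0263, with run A knockouts at 0.34, run B at 1.22 and controls at -0.36 on average. Its relatives Id1 and Id2 were not called, at 0.66 and 0.82, and with run as a covariate these were 0.13 and 0.23.

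DNA damage and cell cycle genes were not called at 5 months. Of 23 p53 targets and DNA damage genes, the smallest p belonged to Gadd45b, at -0.84 ± 0.21 (SE), adjusted p = 0.141, and to its relative Gadd45g, at 0.86 ± 0.23 (SE), adjusted p = 0.168, which point opposite ways. Neither gene overlapped between the groups. Gadd45b stood at 1.73, 1.25, 0.62, 0.80 and 1.003 in the controls and at 0.36, 0.22, 0.41, -0.052 and 0.28 in the knockouts. Among 34 cell cycle and replication genes the median was 0.035, and the mitotic kinase Plk1 gave 0.74 ± 0.18 (SE), adjusted p = 0.117. Fetal and liver tumour markers had a median of 0.11 over 23 genes. The member with the smallest p there was Akr1c18, a hydroxysteroid dehydrogenase, at 1.33 ± 0.32 (SE), adjusted p = 0.115, with run A knockouts at 1.08 and run B at 2.46.

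A guanylate-binding protein and a class I histocompatibility gene were higher in the knockouts. Gbp4 belongs to the interferon-induced GTPases that act against intracellular pathogens. It stood at -1.01, -1.72, -1.01, -1.495 and -1.23 in the controls and at 0.28, 0.28, -0.22, 0.41 and -0.22 in the knockouts. No mice overlapped. The difference was 1.40 ± 0.20 (SE), adjusted p = 0.00886, or 2.64-fold. H2-Bl, a class I gene of the major histocompatibility complex, stood at -0.049, -0.13, 0.11, -0.19 and -0.23 in the controls and at 1.04, 0.68, 1.89, 1.42 and 0.97 in the knockouts. It was higher by 1.30 ± 0.19 (SE), adjusted p = 0.00886, and class I genes are so alike, and so variable between strains, that this probe may read several of them or one allele better than another.

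Other genes of these families were not called and had both directions. Counting Gbp4 and H2-Bl, 31 of 46 interferon-induced genes and 28 of 34 antigen presentation genes were above 0, against 52.3% of all probes. Among the genes not called, the members with the smallest p were above 0. Gbp9 gave 1.37 ± 0.35 (SE), adjusted p = 0.139, though 2 other probes gave -0.21 and -0.55. Bst2, which encodes tetherin, stood at -0.53, -0.38, -0.29, -0.93 and -0.44 in the controls and at 0.23, 0.022, 0.038, 0.29 and 0.017 in the knockouts. B2m, the light chain of every class I molecule, stood at -0.71, -0.021, 0.032, -0.64 and -0.014 and 0.37, 0.092, 0.65, 0.40 and 0.33. For both, all knockouts lay above all controls, with differences of 0.63 ± 0.16 (SE), adjusted p = 0.152 and 0.64 ± 0.19 (SE), adjusted p = 0.23. Of 46 interferon-induced genes, 8 had an unadjusted p under 0.05 upward and 5 did not overlap, against 7.15% and 2.66% of all probes, and the median was 0.15. The antigen presentation list had 5 of 34 at that p upward, or 3 without control 4, against 4.38% of all probes. Its median was 0.23, of which run A gave 0.026 and run B 0.28. H2-Eb1, a class II gene of antigen-presenting cells, stood at 0.056, -0.20, 0.99, 1.09 and 0.67 in the knockouts, so only the run B mice were above the controls. The lowest differences were those of H2-Ea, a class II gene, at -0.97 (adjusted p = 0.513 by limma), and among interferon-induced genes Oas1a, which encodes an oligoadenylate synthetase, at -0.36 (adjusted p = 0.779 by limma).

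The promoters of Bst2 and B2m are shown because both genes had every knockout above every control and both carry the interferon-stimulated response element, the site that interferon-activated factors bind. Each stretch covers the 120 bases from 200 to 81 before the start of transcription, from RefSeq (GRCm38.p6), at chr8:71537553-71537672 on the minus strand and at chr2:122147487-122147606 on the plus strand. Capitals mark matches to GAAA, any 2 bases and GAAA, searched on both strands, and in Bst2 they are 2 overlapping matches.
Bst2: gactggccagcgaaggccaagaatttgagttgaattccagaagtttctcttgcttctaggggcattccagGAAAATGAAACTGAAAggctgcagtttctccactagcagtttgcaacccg
B2m: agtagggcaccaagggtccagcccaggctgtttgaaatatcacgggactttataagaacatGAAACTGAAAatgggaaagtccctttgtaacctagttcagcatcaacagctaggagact
Of 27025 genes with a promoter of 300 bases, 1079 (3.99%) held this motif. Of 33 listed interferon-induced genes with a promoter entry 22 did, and of 26 antigen presentation genes 5 did. Among those with an unadjusted p under 0.05 it was 3 of 5 and 1 of 3. A match describes the letters only, and binding was not measured.

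Of all 48 gene lists, 39 had a median above 0, and the enzymes of detoxification were among them. Glo1, glyoxalase I, disposes of methylglyoxal with glutathione. It stood at -0.59, -0.17, -0.33, -0.73 and -0.38 in the controls and at 0.29, 0.36, 0.93, 0.64 and 0.89 in the knockouts. All knockouts were above all controls, with a difference of 1.06 ± 0.15 (SE), adjusted p = 0.00886, and it was called also with the control 4 array turned (0.90, adjusted p = 0.0454). Of 42 glutathione and antioxidant genes, 13 had an unadjusted p under 0.05 upward, against 7.15% of all probes, and none downward, and the median was 0.24. Without control 4 there were 7, against 4.38%, and the median was 0.17. Gstm2 and Gstm3, glutathione transferases, gave 0.74 ± 0.19 (SE), adjusted p = 0.161 and 1.0985 ± 0.33 (SE), adjusted p = 0.231.

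Phase I and phase II enzymes had positive medians too. Of 35 cytochromes P450 of families 1, 2 and 3, none was called, and the median was 0.42. At an unadjusted p under 0.05 upward were 11, against 7.15% of all probes, or 10 without control 4, against 4.38%. By mouse, the median of these genes was -0.18, 0.27, 0.36, -0.065 and 0.36 in the controls and 0.63, 0.60, 0.45, 0.55 and 0.51 in the knockouts. Every knockout lies above every control, and controls 1 and 4 are well below the other controls. Cyp3a44 and Cyp2c29 gave 0.78 ± 0.21 (SE), adjusted p = 0.175 and 0.66 ± 0.18 (SE), adjusted p = 0.187, and close relatives in both subfamilies may share these probes. Nat8f5, an acetyltransferase-like protein of the Nat8 family, was the one call among 37 conjugation enzymes, at 1.07 ± 0.21 (SE), adjusted p = 0.0494. It stood at 0.29, -0.29, -0.69, 0.18 and 0.50 in the controls and at 1.32, 1.24, 1.07, 0.73 and 0.98 in the knockouts.

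Abca3 is a lipid transporter of the ABC family, known for packing surfactant lipids in lung. Its levels were -1.5035, -1.32, -0.48, -1.25 and -1.22 in the controls and 0.45, -0.63, 0.65, 0.52 and 0.60 in the knockouts. Control 3 and knockout 2 lie apart from their groups, and they are the mice that make the groups overlap. The difference was 1.47 ± 0.22 (SE), adjusted p = 0.00886, and its other probe gave 0.96 and was also called. Slc19a2, a thiamine transporter, was higher by 0.77 ± 0.13 (SE), adjusted p = 0.0219. In the list of 36 ABC and organic ion transporters, Abca3 and Slc22a7 were the calls, and the median was 0.10.

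Amino acid enzymes included Oat, which fell just short. Ornithine aminotransferase is confined to hepatocytes around the central vein, beside glutamine synthetase. It stood at 0.065, 1.08, 0.71, 0.42 and 0.84 in the controls and at 1.81, 1.30, 1.92, 1.51 and 1.73 in the knockouts, without overlap, and the difference was 1.03 ± 0.20 (SE), adjusted p = 0.052. Hpd, which degrades tyrosine, gave 0.75 ± 0.16 (SE), adjusted p = 0.0785. Of 43 genes of amino acid and urea metabolism, 20 had an unadjusted p under 0.05 upward, against 7.15% of all probes, and none downward. Without control 4 there were 17, against 4.38%. Only 2 of the 43 did not overlap, near the 2.66% of all probes. The pericentral list had a median of 0.20 over 28 genes and the periportal list 0.19 over 22, so the zones did not point opposite ways.

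Ribosomal protein genes had the largest share of members without overlap among the 48 lists. Of 67 measured, 24 had every knockout above every control, against 2.66% of all probes, and 33 had an unadjusted p under 0.05 upward, against 7.15%. Rpl32 was the one call, at -0.80, -0.95, -0.94, -1.62 and -1.01 in the controls and 0.076, -0.13, -0.32, -0.39 and -0.40 in the knockouts. Its difference was 0.83 ± 0.16 (SE), adjusted p = 0.0431, and a call on a ribosomal protein can include processed pseudogene copies. Rpl35 and Rpl26 gave 0.81 ± 0.18 (SE), adjusted p = 0.0848 and 0.62 ± 0.14 (SE), adjusted p = 0.11.

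Control 4 was far below the other livers in this list. By mouse the ribosomal median was -0.10, -0.24, -0.16, -0.70 and -0.31 in controls 1 to 5 and 0.28, 0.055, -0.077, 0.022 and -0.065 in knockouts 1 to 5. Without control 4, 20 of the 67 had an unadjusted p under 0.05 upward, against 4.38% of all probes, and the median difference went from 0.36 to 0.26. At 3 months the median was -0.19, the opposite sign.

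Subunits of oxidative phosphorylation resembled the ribosomal genes. Their median was 0.28, against -0.24 at 3 months. Of 71, 26 had an unadjusted p under 0.05 upward, against 7.15% of all probes, and none downward. In 10 every knockout lay above every control, against 2.66% of all probes. None was called, and Ndufa12, an accessory subunit of complex I, had the smallest p, at 0.71 ± 0.15 (SE), adjusted p = 0.0785. Its levels were -0.39, 0.054, 0.21, -0.58 and -0.25 in the controls and 0.72, 0.51, 0.49, 0.34 and 0.51 in the knockouts. Without control 4 the count at an unadjusted p under 0.05 upward fell to 9, against 4.38% of all probes, and the median to 0.20. Proteasome subunits had a median of 0.18, endoplasmic reticulum stress genes 0.24 and cytosolic heat shock genes 0.17, with no call in any of these 3 lists.

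**Figure D3:**
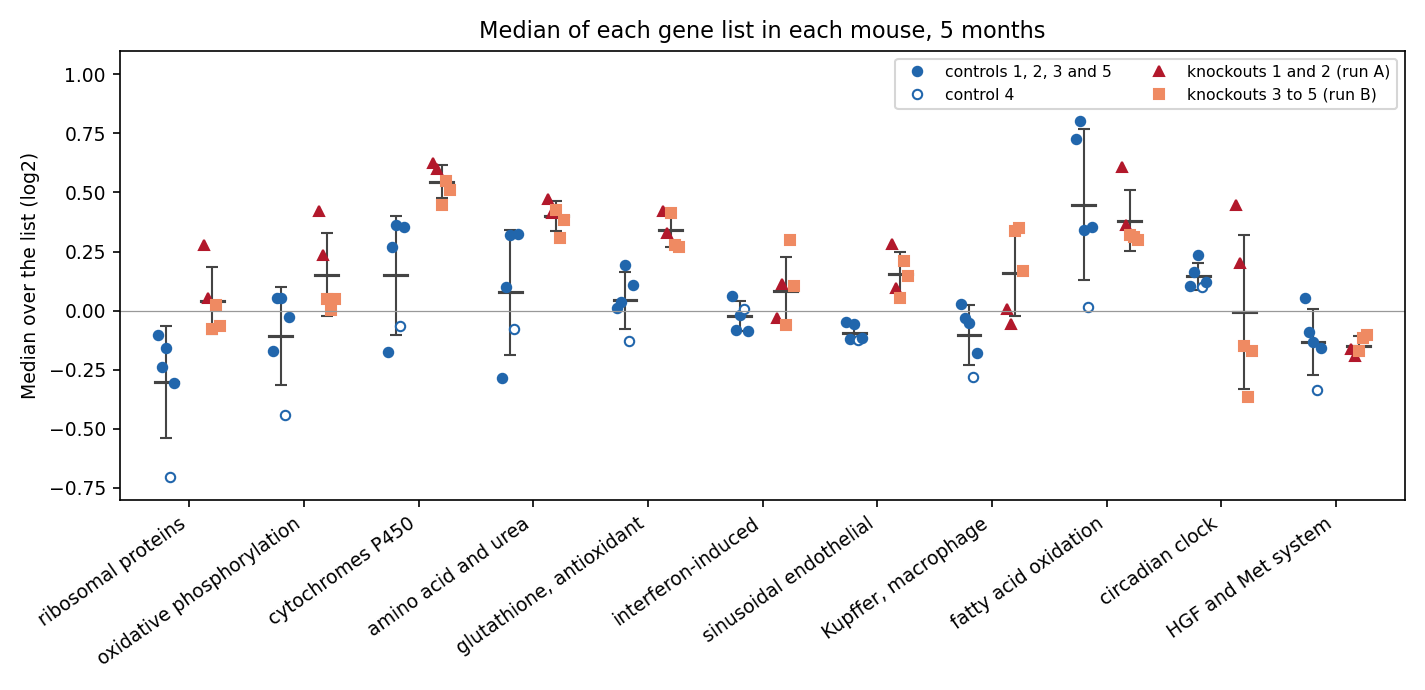
Each point is the median over the genes of a list (x axis) in a mouse, on the scale of log2 liver over reference (y axis), with bars for the mean ± SD over mice, n = 5. Knockouts lie above controls in the ribosomal, cytochrome P450 and sinusoidal endothelial lists, control 4 (open circle) is lowest in several, and in the circadian list knockouts of run B (squares) lie below all other mice.

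The other called genes are given singly. Dynlt1b, a light chain of the dynein motor, stood at -1.27, -1.29, -1.98, -1.51 and -1.02 in the controls and at -0.053, -0.013, -0.65, -0.29 and -0.31 in the knockouts, with a difference of 1.15 ± 0.17 (SE), adjusted p = 0.00886. It was called with run as a covariate too (1.38), and near-identical copies of this gene may share the probe. Its other probe gave 0.43 and was not called (adjusted p = 0.37 by limma). P2rx4, an ATP-gated cation channel, stood at -0.44, -0.59, -0.51, -1.17 and -0.45 in the controls and at 0.42, 0.17, 0.25, 0.38 and 0.50 in the knockouts. It was higher by 0.98 ± 0.15 (SE), adjusted p = 0.00886 at this probe, while its other probe gave -0.018.

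Cstf3, a subunit of the complex that cleaves mRNA 3′ ends, stood at -0.067, -0.29, -0.39, -0.44 and -0.50 in the controls and at 0.47, 0.51, 0.47, 0.18 and 0.34 in the knockouts, a difference of 0.73 ± 0.12 (SE), adjusted p = 0.0186. Col6a1, a chain of the matrix collagen VI, stood at -0.13, -0.79, -0.19, -1.0005 and -0.89 in the controls and at 0.67, 0.68, 0.10, 0.84 and 0.71 in the knockouts. The called probe gave 1.20 ± 0.20 (SE), adjusted p = 0.0196, and its 2 other probes gave 0.25 and -0.16, so the probes of this gene disagree. Mug2, a murinoglobulin and so a plasma protease inhibitor made in liver, stood at -0.73, -0.29, -0.43, -1.21 and -0.99 in the controls and at 0.33, 0.17, 0.16, 0.20 and 0.34 in the knockouts. Its difference was 0.97 ± 0.16 (SE), adjusted p = 0.0196, and 3 further probes gave 0.76, 1.09 and 1.08, some of which may read the related Mug1.

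Another 8 genes were higher. Pnrc1, a nuclear receptor coactivator, gave 0.85 ± 0.14 (SE), adjusted p = 0.0196, and Elob, the elongin B subunit of ubiquitin ligases, gave 0.85 ± 0.15 (SE), adjusted p = 0.0219. Megf9, a membrane protein with EGF-like domains, gave 0.78, and Wwox, an oxidoreductase and tumour suppressor, gave 0.88. Lrtm1, a leucine-rich repeat protein, gave 0.95, and Olfm1, a secreted glycoprotein, gave 1.42. Veph1 gave 1.91, the largest positive difference among the calls. Clock, a core transcription factor of the circadian oscillator, gave 0.59 ± 0.11 (SE), adjusted p = 0.037. Other probes of Pnrc1, Wwox, Olfm1 and Veph1 lay between -0.26 and 0.20, so for these 4 genes the call rests on 1 probe each. Only 1 probe was called also for genes whose other probes gave smaller differences of the same direction. These were Cstf3 (0.28), Megf9 (0.24), Elob (0.22 and 0.59), Clock (0.37 and 0.35), Cpeb2 (0.65), Lrtm1 (0.68) and Dynlt1b (0.43). In all, 10 of the 28 genes have no other probe, and 6 have one of opposite direction.

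The circadian clock list split by array run. Clock itself stood at -0.77, -0.33, -0.35, -0.42 and -0.52 in the controls and at 0.055, 0.053, 0.14, 0.087 and 0.22 in the knockouts, with both runs alike. Its output gene Dbp, a transcription factor with a strong daily rhythm in liver, stood at 0.70, 0.63, 0.29, 0.36 and 0.81 in the controls and at 0.63, 0.11, -0.65, -2.11 and -1.02 in the knockouts. Wee1, a clock-controlled kinase that holds mitosis back, stood at 1.103, 1.65, 1.27, 1.06 and 0.69 and 1.38, 1.32, -0.78, -0.74 and -0.48. In both genes the knockouts of run B were lowest. Knockout 2 of run A was also below the controls for Dbp, and for Wee1 both run A knockouts lay within them. Dbp gave -1.16 ± 0.41 (SE), adjusted p = 0.333, or -0.19 with run as a covariate. Wee1 gave -1.02 ± 0.36 (SE), adjusted p = 0.335, or 0.20, a change of sign. Over 25 clock genes the median was 0.18 for run A knockouts minus controls and -0.49 for run B. The hour of tissue collection is not given in the sources used here.

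Metallothioneins and Lcn2 varied more between controls than between genotypes. Mt1, which binds zinc and copper and rises with stress hormones, stood at 2.13, 1.15, -1.08, -0.97 and -1.73 in the controls and at -0.66, -0.43, -2.42, -2.30 and -2.21 in the knockouts. Controls 1 and 2 were far above the rest, and knockouts of run B were lowest. Mt2 stood at 2.63, 1.52, -1.17, -1.06 and -2.24 and -1.31, -0.66, -2.53, -2.31 and -2.44, with the same 2 controls highest and the same 3 knockouts lowest. Neither was called, at -1.51 ± 0.58 (SE), adjusted p = 0.365 and -1.79 ± 0.66 (SE), adjusted p = 0.347. Lcn2, a neutrophil and acute-phase protein, reached 4.34 in control 1 and lay between -2.49 and 0.34 in the other controls, and its difference was -1.83 ± 0.84 (SE), adjusted p = 0.452. Scd2, a fatty acid desaturase, stood at 0.38, 0.57, 2.10, 1.85 and 1.37 in the knockouts, so its difference of 1.0006 became 0.22 with run as a covariate.

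**Figure D4:**
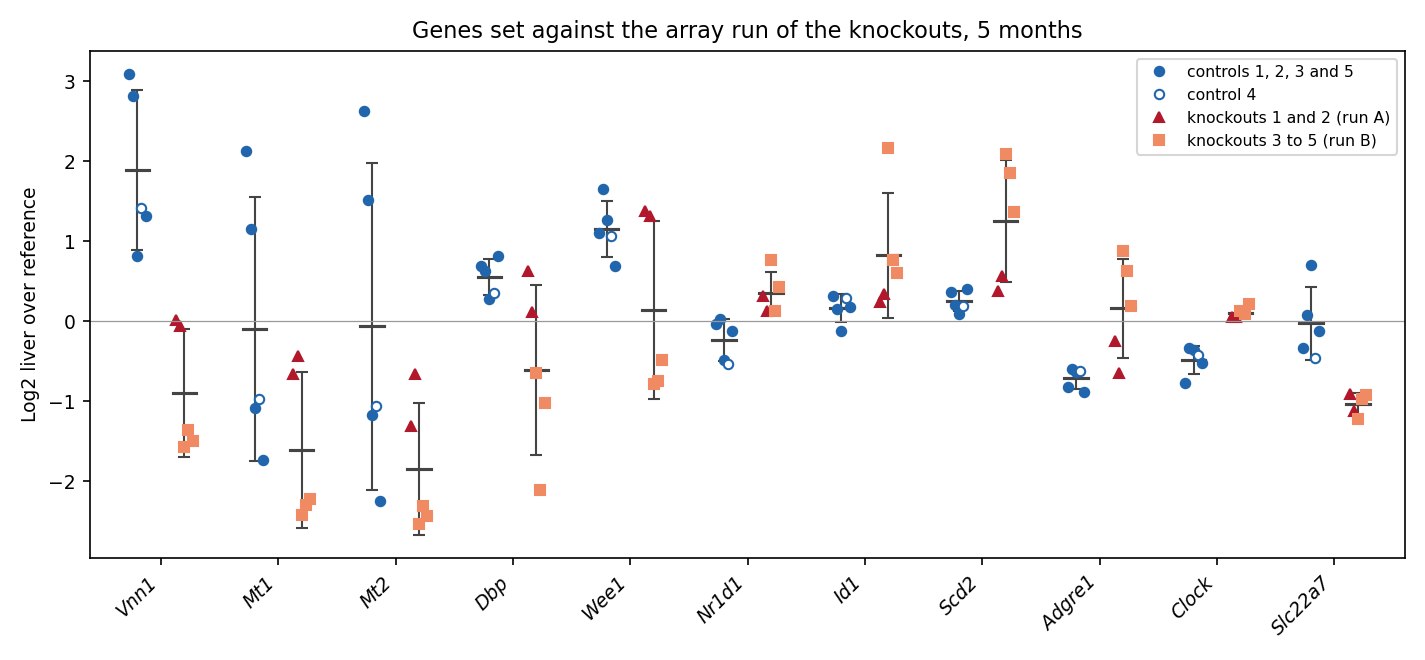
Points are log2 liver over reference (y axis) for single mice in 11 genes (x axis), with the mean ± SD, n = 5 per genotype. For Wee1, Dbp, Scd2 and Adgre1 the run A knockouts (triangles) lie nearer to the controls than the run B knockouts (squares) do, while for Clock and Slc22a7 all knockouts lie together.

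Several lists of markers of the other liver cells, which keep Met, also had positive medians. Of 31 sinusoidal endothelial markers, 10 had an unadjusted p under 0.05 upward and 1 downward, against 7.15% and 3.26% of all probes. Without control 4 there were 9 upward, against 4.38%. The median of these markers by mouse was -0.13 to -0.048 in controls and 0.052 to 0.28 in knockouts. Fcgr2b, the scavenging Fc receptor of these cells, stood at -0.24, -0.16, -0.15, -0.55 and -0.33 in the controls and at 0.28, 0.43, 0.052, 0.35 and 0.20 in the knockouts, a difference of 0.55 ± 0.12 (SE), adjusted p = 0.0705. Stellate cell markers had 6 of 18 at an unadjusted p under 0.05 upward, or 5 without control 4, against the same shares of all probes. Among them Dcn, the matrix proteoglycan decorin, stood at -0.14, -0.44, 0.035, -0.28 and -0.29 in the controls and at 0.33, 0.33, 0.24, 0.44 and 0.32 in the knockouts. Its difference was 0.55 ± 0.11 (SE), adjusted p = 0.0506, narrowly short of the threshold, and 3 further probes gave 0.55, 0.54 and 0.72. Rgs5, a pericyte marker, gave 0.93 ± 0.19 (SE), adjusted p = 0.0573.

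Kupffer cell and macrophage markers stood higher in the run B knockouts than in the run A knockouts. Of 26, 8 had an unadjusted p under 0.05 upward, against 7.15% of all probes, or 5 without control 4, against 4.38%. Their median level was 0.0065, -0.055, 0.34, 0.35 and 0.17 in knockouts 1 to 5. Adgre1, the defining surface receptor of mouse macrophages, stood at -0.82, -0.59, -0.63, -0.62 and -0.88 in the controls and at -0.24, -0.64, 0.88, 0.63 and 0.20 in the knockouts. Its difference of 0.88 ± 0.25 (SE), adjusted p = 0.224 became 0.27 with run as a covariate. Collagens and matrix genes had a median of 0.021 over 43, neutrophil markers -0.11 over 16, T and natural killer cell markers -0.018 over 25 and B cell markers 0.13 over 19. No cell type marker was called. The part of cell makeup in the called genes was not tested.

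The difference between genotypes was then set against that at 3 months, in 5 knockouts and 5 controls of their own. The turned arrays of each of these mice correlated negatively, as given above, which limits every 3-month value. The test of the difference between ages called 0 of 36607 probes by limma, with 2949 at an unadjusted p under 0.05. Of the 41 probes called at 5 months, 30 had the same direction at 3 months. The share over all probes was not counted, and some of the 41 are probes of the same gene. The 30 are therefore no measure of how far the differences persist. Among the larger differences at 3 months were those of H2-Bl, at 1.05, Slc22a7, at -0.87, Dynlt1b, at 0.73, and Nat8f5, at 0.69. Others lay near 0 at that age, where Gbp4 gave -0.14, Zfp36l1 0.0046, Col6a1 0.039 and P2rx4 -0.055. Since the genes were chosen at 5 months, smaller values at 3 months cannot be read as a change, and the adjusted p for Gbp4's difference between ages was 0.394.

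The levels of the higher genes were also set beside those of the 3-month mice. In 25 of the 26 higher genes the 3-month control mean lay above the 5-month control mean, against 38.4% of all probes. The 3-month control mean was above the 5-month control mean by a median of 0.79 in these genes, against -0.13 over all probes. For knockouts the same median was 0.030, against -0.14 over all probes. The 5-month knockout mean lay nearer than the 5-month control mean to the 3-month control mean in 20 of the 26, against 62.1% of all probes. Gbp4, for example, averaged -1.30 in 5-month controls, 0.11 in 5-month knockouts, -0.057 in 3-month controls and -0.20 in 3-month knockouts. Others differed: St7 averaged 0.20 in 5-month and 0.19 in 3-month controls. H2-Bl averaged -0.098 and 0.17 in 5-month and 3-month controls and 1.20 and 1.22 in the knockouts. The genes were chosen partly for low values in 5-month controls, which favours 5-month controls below the other groups. The ages were hybridised in different array runs and cannot be told apart from them.

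**Figure D5:**
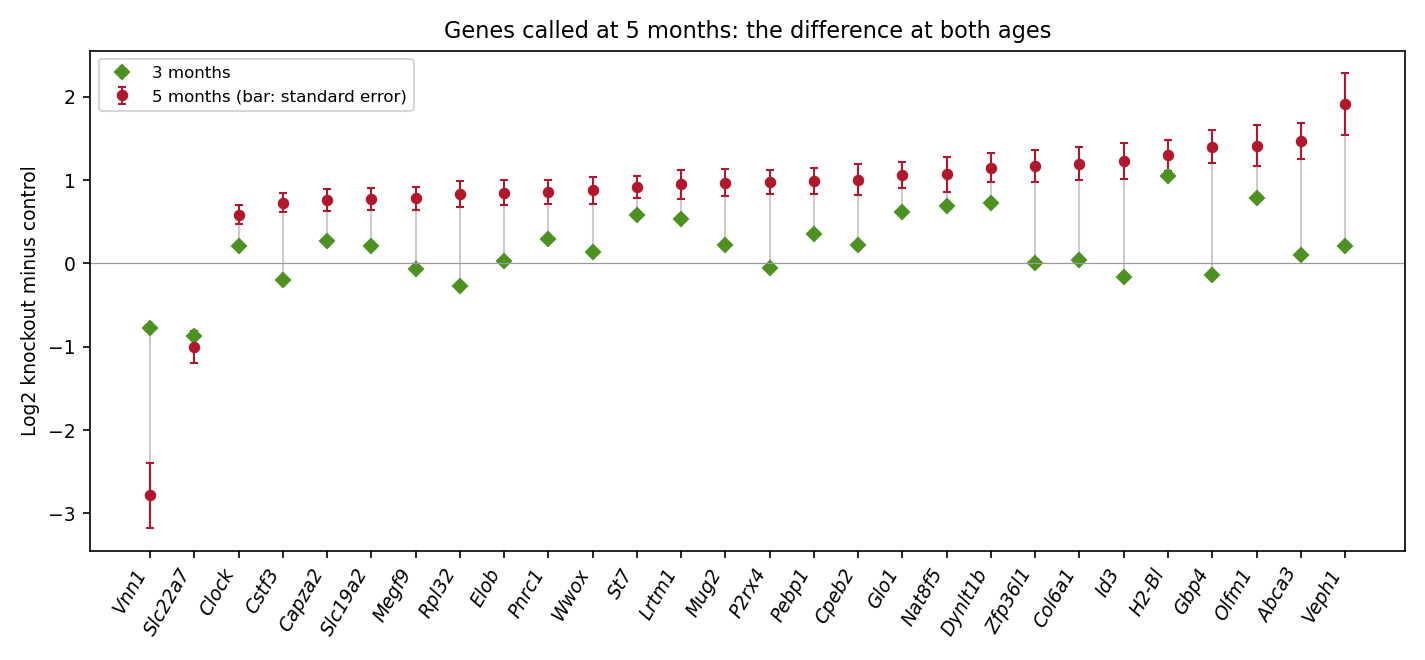
For the 28 called genes (x axis), the log2 difference of knockout minus control (y axis) is drawn at 5 months with its standard error (red circles) and at 3 months (green diamonds). H2-Bl and Slc22a7 have similar values at both ages, and Gbp4, Col6a1 and Abca3 lie near 0 at 3 months.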

How the data were processed

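RNA was read on 2-colour long-oligonucleotide arrays. The deposited values are log2 dye ratios, 1 per probe and array, which the authors normalised to each array's 50th percentile in the mAdb suite, per the series' design text. Background handling and the numerator dye are not stated in these sources, and base 2 was read from the values. Signal behind a ratio is not in the values, so the number of arrays limits the precision.

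Liver-in-Cy3 arrays were multiplied by -1. A dye effect per probe, estimated from the 8 mice of 5 months with both orientations, was then taken off, and each mouse entered as the mean of its arrays. The 20 mice of 4 groups were fitted together (limma 3.58.1, R 4.3.3, lmFit and eBayes, 16 residual degrees of freedom), with Benjamini-Hochberg adjustment over 36607 probes. The script was tested on simulated data of that size, where 32 of 50 differences of 1 and 5 of 50 of 0.5 were recovered, with 4 false calls. P-values measure the spread between mice within all 4 groups, both ages included, and the separate housing or litters of the mice are not stated.

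Of the probes, 26926 carry 1 gene symbol in the array annotation, 26774 of them updated through RefSeq. The text names every called gene by its called probe with the smallest p, and in each list up to 3 members by the gene's first probe, where the unadjusted p was under 0.05. Any other gene in the text was chosen after its values were seen. The members and gene lists were chosen with earlier results of these data known. Alternatives covered the dye effect, centring, quantile normalization, array run, pairing by animal number, the control 4 array, each orientation alone, arrays as units, probes with 1 symbol, each mouse left out and a 2-sample test.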

Additional observations from a re-analysis of the deposited data

Results flagged for a closer look

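In 58 groups of 5 mice, 7 values lay far from the other 4 of their group by Dixon's test at 95%, which chance does in about 1 of 20 groups. Abca3 stood at -0.48 in control 3 and at -0.63 in knockout 2, which make its groups overlap. P2rx4 stood at -1.17 and Rpl32 at -1.62 in control 4, below the other controls. In the knockouts, Col6a1 stood at 0.10 in mouse 3 and Elob at 0.35 in mouse 2, both the lowest of their group. Met stood at -1.65 in knockout 3, which has a single array.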

How the results depend on the processing

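The 41 calls between genotypes became 5 with the 5-month mice fitted alone, 687 with quantile normalization (410 higher, 277 lower), 3 with array run as a covariate and 1 within run A. A fit with the animal number as a replicate block gave 1 call and, for the difference between ages, 1 in place of 0. Same-numbered mice did not deviate together (r from -0.28 to 0.10 over the 5 numbers). A correlation over probes cannot show whether the numbers stand for a pairing, and the sources used here do not state it. The control 4 array with its sign turned gave 9 calls, and with the dye effect of a Cy3 array 65. Liver-in-Cy5 arrays alone gave 0 calls by limma (5625 probes at an unadjusted p under 0.05) and liver-in-Cy3 arrays alone 2. Arrays as units with mouse as a random block gave 344 and, for the difference between ages, 75. Leaving out the run B knockouts gave 0 and leaving out knockouts 2 and 3 gave 21. The 2-sample test of the methods gave 211 probes unadjusted at 0.001 and 1 after adjustment. Leaving out 1 mouse gave 10 to 100 calls, and 0 to 1 for the difference between ages. Without a given mouse the count moved by over 1.5 times to 18 (control 1), 100 (control 3), 11 (control 4), 16 (control 5), 23 (knockout 3), 10 (knockout 4) and 11 (knockout 5). The settings of the control 4 dye effect, the run B knockouts and knockouts 2 and 3 were added after seeing the data. Of the called genes, 8 of 28 kept their call without each of the 10 mice in turn, and none reversed under any setting. Met reversed to 0.13 with quantile normalization, 0.17 with run as a covariate, within run A or without the run B knockouts, 0.013 without the control 4 array, 0.34 in liver-in-Cy3 arrays alone, 0.025 with arrays as units and 0.20 without knockouts 2 and 3, and ran from -0.17 to 0.16 without single mice. Wee1 reversed to 0.20 with run as a covariate, within run A and without the run B knockouts. The cause was not tested.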
